A study of Drosophila melanogaster with 6 samples.

Results

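The mRNA levels of 10 nuclear receptor genes were examined in fly heads, out of 11922 FlyBase gene identifiers with a value in each sample. The genes are Hnf4, ERR, Hr96, Hr38, Hr39, Hr51, Eip75B, EcR, usp and svp, chosen by name for their links to lipid and steroid sensing, and all 10 were found by their FlyBase symbol. Heads and associated tissues came from wild-type Oregon-R virgin female flies aged 5 d. There were 3 samples of flies fed with high-fat diet (HFD, normal food with coconut oil added) and 3 samples of flies fed with normal diet (ND), each for 5 d. Each sample was RNA from a pool of flies, and poly(A) RNA was sequenced. The authors deposited FPKM, the fragment number scaled by exon length and by the total of mapped fragments, so levels can be set side by side between genes within a sample.

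Nuclear receptors are transcription factors that bind DNA through a pair of zinc fingers, and many of them are switched by a small fat-soluble ligand. In flies, EcR and usp together form the receptor of the steroid ecdysone, whose pulses drive molting and metamorphosis and which also acts in the adult brain, ovary and fat body. Eip75B is a heme-binding receptor and an early target of ecdysone. Hnf4, Hr96 and ERR are tied to metabolism: in larvae, Hnf4 promotes the burning of stored fat during fasting, Hr96 controls genes of dietary fat digestion and sterol balance, and ERR turns on glycolysis. Hr38 is the fly member of a receptor family that nerve cells of many animals induce when they are active.

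None of the 10 receptor genes differed between HFD-fed and ND-fed flies with an adjusted p under 0.05, which 0.0478% of all tested genes had. For 9 of the 10 genes the 95% interval of the log2 difference in FPKM + 1 lay within -1 and 1, against 86.1% of all tested genes. This is a range of about 2-fold in either direction for genes well above 1 FPKM. It is not a 2-fold limit on the FPKM of Hr51, whose mean was 0.680 FPKM. Hr38 was the gene whose interval went beyond -1 and 1. Its level was higher in all 3 HFD samples than in ND replicates 1 and 2, and higher still in ND replicate 3. Differences were estimated with limma on log2(FPKM + 1), HFD minus ND, over the 8362 genes whose mean reached 0.5 FPKM, and p-values were adjusted over all of them. For genes with low values the added 1 makes such a difference smaller than the true change. SE stands for the standard error of a difference. All 10 receptors passed the filter.

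The libraries differed within each diet as well as between the diets. The summed level of 7 gut marker genes was 7902, 4173 and 10785 FPKM in HFD replicates 1, 2 and 3, 13068 and 13427 FPKM in ND replicates 1 and 2, and 38.1 FPKM in ND replicate 3. ND replicate 3 also had the lowest correlations of log2 levels with the other samples, from 0.842 to 0.920, against 0.934 to 0.979 between other samples. The lowest of the latter were those of HFD replicate 2 with ND replicates 1 and 2. Markers of head tissue were present in every library, with the photoreceptor opsin ninaE between 13953 and 16268 FPKM in the HFD samples and between 12867 and 17904 FPKM in the ND samples, and both measured male germ line markers were listed at 0 throughout. From the steps of low FPKM values, the depth was estimated at 5.30 to 11.8 M fragments in the HFD samples and 8.13 to 10.3 M in the ND samples, with HFD replicate 2 the shallowest. In pooled heads, fewer cells of a type and less RNA per cell cannot be told apart.

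The 10 receptors together summed to between 177.2 and 186.0 FPKM in the HFD samples and between 174.2 and 199.9 FPKM in the ND samples. Their order of level was Eip75B, Hnf4, usp, ERR, svp, Hr96, Hr39, EcR, Hr38 and Hr51, by the mean over the 6 samples, which ran from 42.6 FPKM for Eip75B to 0.680 FPKM for Hr51. Some neighbours in this order could not be separated. ERR was above svp in 4 of 6 samples, svp was above Hr96 in 2 of 6 samples, and Hr39 was above EcR in 2 of 6 samples. In contrast, Eip75B was above Hnf4 and Hnf4 above usp in all 6 samples. Among the tested genes, Eip75B stood at the 79.7th percentile of mean level and Hr51 at the 2.00th.

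**Figure D1:**
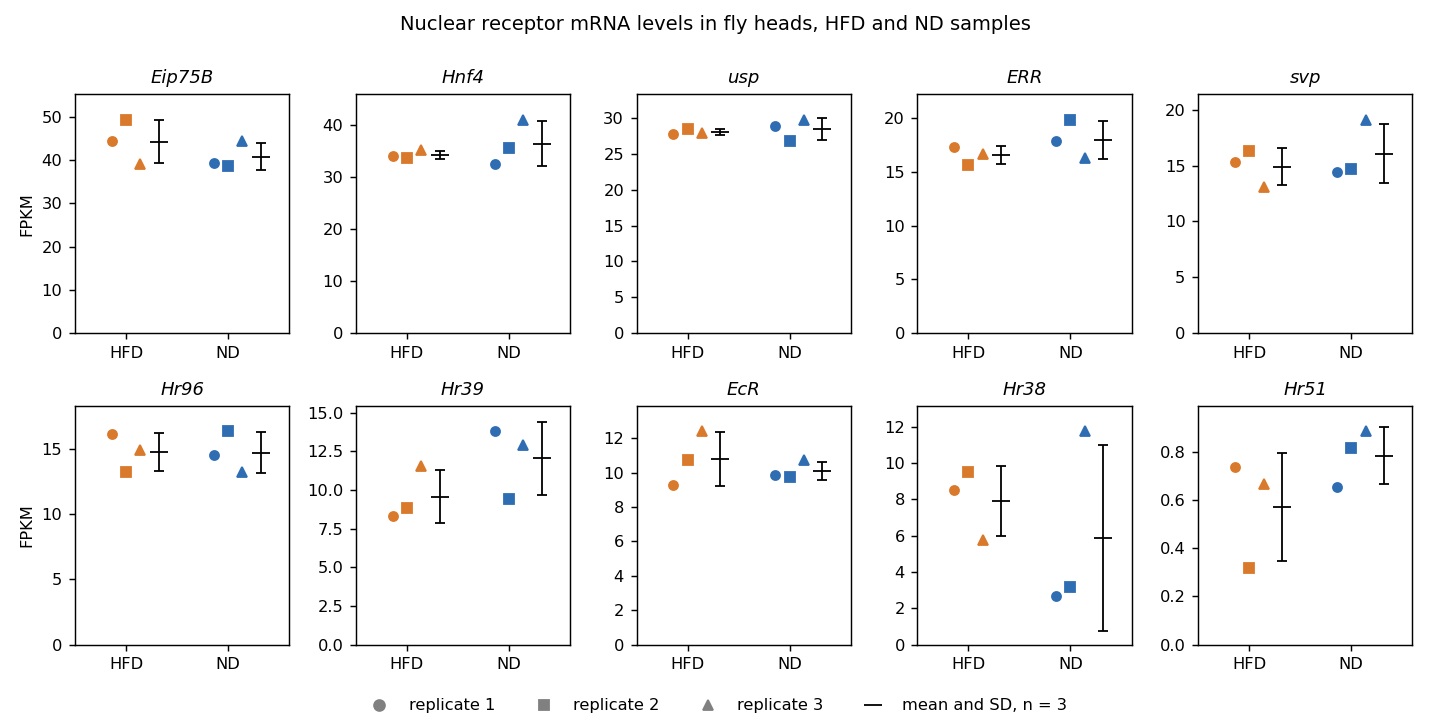
FPKM of each of the 10 receptor genes in the 3 HFD samples (left, orange) and the 3 ND samples (right, blue), with replicates by symbol, the mean and the SD, panels in order of mean level and each axis starting at 0. The groups overlap in every panel, and Hr38 shows ND replicate 3 at 11.8 FPKM above all other samples and ND replicates 1 and 2 at 2.65 and 3.17 FPKM below them.

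EcR and usp, the subunits of the ecdysone receptor, were both expressed in every sample. EcR (FBgn0000546) was annotated in BDGP6 on chromosome 2R (6087873 to 6169087, minus strand), and 6 transcripts are listed. Its level was 9.28, 10.7 and 12.4 FPKM in HFD replicates 1, 2 and 3, against 9.84, 9.75 and 10.7 FPKM in ND replicates 1, 2 and 3. The HFD samples spanned the whole range of the ND samples, and the log2 difference was 0.082 (SE 0.12, adjusted p = 0.998 by limma). The gene of its partner usp (FBgn0003964), the fly homolog of the vertebrate RXR proteins, lies on chromosome X from 2038798 to 2042311, also on the minus strand, with 2 transcripts. It was at 27.7, 28.5 and 27.8 FPKM in the HFD samples, against 28.9, 26.8 and 29.7 FPKM in the ND samples. The log2 difference of usp was -0.021 (SE 0.071, adjusted p = 0.998 by limma), the narrowest error of the 10 genes. Under median-ratio scaling of the samples it was 0.0057, so its sign is not settled.

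In every sample usp had the higher level of the pair, by a factor between 2.24 and 2.98. Exons of usp overlap those of Actn and CG4313, and EcR has no such overlap. Actn was at 51.8, 58.6 and 56.4 FPKM in the HFD samples, against 51.2, 44.7 and 60.0 FPKM in the ND samples. The part of shared or dropped reads in the level of usp was not tested. The log2 ratio of EcR to usp was -1.38 ± 0.207 (SD, n = 3) in HFD samples and -1.49 ± 0.0501 (SD, n = 3) in ND samples. The two-sided exact permutation test on this ratio gave p = 0.5, where 0.1 is the smallest p that 3 samples against 3 allow. The difference of 0.11 fell to 0.0021 without HFD replicate 3, the sample in which EcR was highest.

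Eip75B (FBgn0000568) was the most abundant of the receptors. Its gene covers 113744 bp on chromosome 3L (17950953 to 18064696, minus strand), with 7 transcripts. It was at 44.5, 49.3 and 39.2 FPKM in the HFD samples, against 39.2, 38.8 and 44.4 FPKM in the ND samples. HFD replicates 1 and 2 and ND replicate 3 were the high samples, the same set that was high in Hr38. HFD minus ND came to 0.11 (SE 0.11, adjusted p = 0.961 by limma). The deposited values are 1 per gene, so the isoforms of Eip75B and EcR, which differ in their N-terminal parts, were not separated.

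Hnf4 (FBgn0004914), which lies on chromosome 2L (8687226 to 8709611, minus strand) with 5 transcripts, encodes a receptor whose mammalian relatives bind fatty acids. Hnf4 was at 34.0, 33.6 and 35.1 FPKM in the HFD samples, against 32.4, 35.6 and 40.9 FPKM in the ND samples. The HFD samples fell within the range of the ND samples, and ND replicate 3 was the highest of all. On the log2 scale the difference was -0.076 (SE 0.10, 95% interval -0.32 to 0.17, adjusted p = 0.996 by limma). In flies this gene is known to be active in the gut as well as in fat body. The library with the highest Hnf4 level was the one with a summed gut marker level of 38.1 FPKM, and without that library the log2 difference was 0.011.

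Hr96 (FBgn0015240), known for its part in sterol and triglyceride balance, lies on chromosome 3R from 25025235 to 25029351 and has 1 transcript of 2834 nt. Its level was 16.1, 13.2 and 14.9 FPKM in the HFD samples, against 14.5, 16.3 and 13.2 FPKM in the ND samples. Both diets covered a like range, and the log2 difference was 0.0050 (SE 0.11, 95% interval -0.27 to 0.28, adjusted p = 0.998 by limma). Its sign turned in 4 of the 6 fits that left out 1 sample.

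ERR (FBgn0035849) lies on chromosome 3L (8183361 to 8186671, minus strand), with 2 transcripts. ERR was at 17.3, 15.7 and 16.7 FPKM in the HFD samples, against 17.8, 19.8 and 16.3 FPKM in the ND samples. The HFD samples lay below ND replicates 1 and 2, and ND replicate 3 fell between HFD replicates 2 and 3. HFD minus ND was -0.11 (SE 0.096, adjusted p = 0.946 by limma). Without ND replicate 3, where the groups no longer overlapped, it was -0.18 (SE 0.088, adjusted p = 0.467 by limma), and without ND replicate 2 it was -0.040.

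Hr39 (FBgn0261239), a receptor of the same family as ftz-f1 that is needed in secretory cells of the female reproductive tract, lies on chromosome 2L from 21237250 to 21259675 with 4 transcripts. It was at 8.34, 8.81 and 11.6 FPKM in the HFD samples, against 13.8, 9.38 and 12.9 FPKM in the ND samples. HFD replicates 1 and 2 were below all ND samples and HFD replicate 3 was above ND replicate 2. This was the largest negative difference of the 10 genes, at -0.30 (SE 0.18, adjusted p = 0.900 by limma), with p = 0.2 by exact permutation. Without ND replicate 2 the log2 difference was -0.45, with a limma adjusted p of 0.967, and without ND replicate 1 it was -0.20.

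svp (FBgn0003651), the homolog of the vertebrate COUP-TF receptors, is known for its part in the choice of photoreceptor type in the eye. It lies on chromosome 3R from 12258737 to 12302785 with 5 transcripts. Its level was 15.3, 16.3 and 13.1 FPKM in the HFD samples, against 14.4, 14.7 and 19.1 FPKM in the ND samples. ND replicate 3 was above the other 5 samples, as it was for the summed photoreceptor, neuron and glia markers. The photoreceptor markers were between 22536 and 26017 FPKM in the HFD samples and between 20263 and 28799 FPKM in the ND samples. In ND replicate 3 the neuron and glia markers were at 239.6 and 1074 FPKM, against at most 193.1 and 1047 FPKM in the HFD samples. The summed muscle and fat body markers were not highest there. These sums are of values as deposited. After median-ratio scaling, svp and all measured neuron and photoreceptor markers were still highest in ND replicate 3. Of the measured glia markers only Eaat1 was. Gs2, the largest part of the glia sum, was then at 817.7 FPKM in HFD replicate 2, against 772.9 FPKM in ND replicate 3. The part of these markers in the svp level was not tested. The log2 difference of svp was -0.094 (SE 0.14, adjusted p = 0.998 by limma), and 0.030 without ND replicate 3.

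Hr51 (FBgn0034012), also named unfulfilled and known from mushroom body and clock neurons, lies on chromosome 2R from 15331325 to 15339384 with 1 transcript of 2089 nt. It was at 0.738, 0.317 and 0.666 FPKM in the HFD samples, against 0.656, 0.816 and 0.889 FPKM in the ND samples. By the estimated depths these values rest on only 4 to 19 fragments per sample, and the lowest value came from the shallowest library, HFD replicate 2. Its log2 difference was -0.19 (SE 0.18, adjusted p = 0.959 by limma). For the other 9 receptors, between 127 and 1729 fragments per sample stand behind the values when the shortest transcript is used.

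Hr38 (FBgn0014859) had the widest spread among samples of the 10 receptors. It lies on chromosome 2L (20683462 to 20714588, minus strand), with 2 transcripts of 7044 and 7704 nt. Its level was 8.53, 9.50 and 5.77 FPKM in HFD replicates 1, 2 and 3, against 2.65, 3.17 and 11.8 FPKM in ND replicates 1, 2 and 3. The highest sample was thus 4.44 times the lowest, and both belonged to ND. The mean level was 7.93 ± 1.94 FPKM (SD, n = 3) in HFD samples and 5.86 ± 5.12 FPKM (SD, n = 3) in ND samples. Between the diets the log2 difference was 0.60 (SE 0.51, 95% interval -0.64 to 1.84, adjusted p = 0.944 by limma), with p = 0.6 by exact permutation.

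The value for Hr38 depended on each of the ND samples. The log2 difference was 0.27 without ND replicate 1 and 0.36 without ND replicate 2. Without ND replicate 3 the HFD mean was 2.72 times the mean of ND replicates 1 and 2, and the log2 difference came to 1.17 (SE 0.22, 95% interval 0.62 to 1.72). The adjusted p from limma was then 0.157, so the difference did not pass the threshold, which 0.0599% of all tested genes did in that fit. The unadjusted p was 0.00266, and 12.5% of all tested genes had an unadjusted p under 0.05, with 6.85% higher in HFD samples. Of the 10 receptors, Hr38 alone was among them, and Hr38 and ERR were the 2 whose groups no longer overlapped, against 35.7% of all tested genes, with 18.9% higher in HFD samples. The exon of Hr38 overlaps that of CG2617 on the opposite strand. CG2617 was at 2.06, 0.578 and 3.38 FPKM in the HFD samples, against 1.91, 1.16 and 2.76 FPKM in the ND samples, a pattern that did not follow that of Hr38.

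**Figure D2:**
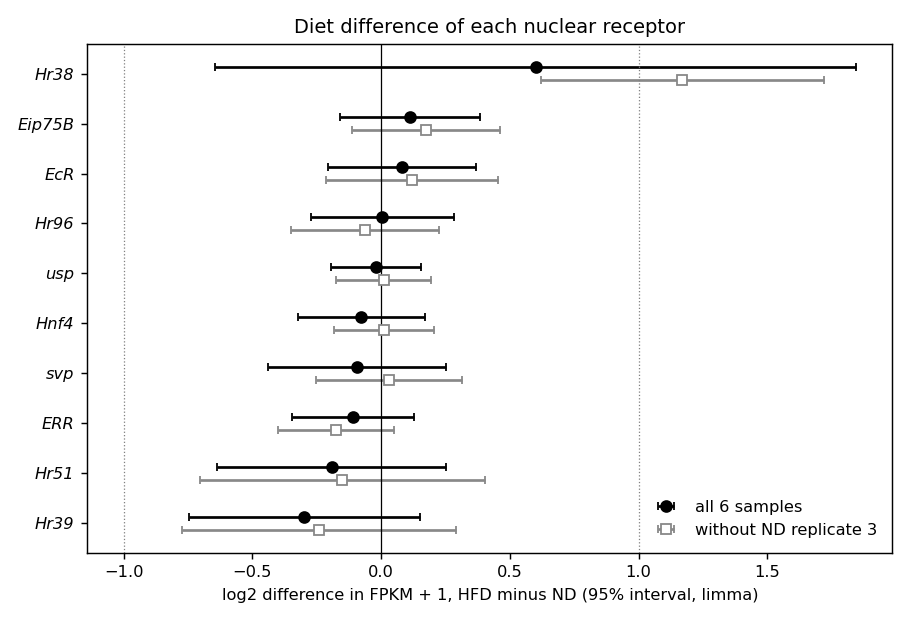
Log2 difference of each receptor gene, HFD minus ND, with its 95% interval from limma, in the fit of all 6 samples (filled circles) and without ND replicate 3 (open squares), with dotted lines at -1 and 1. All intervals of the full fit include 0, and Hr38 shifts to 1.17 without ND replicate 3 while the other 9 genes stay between -0.24 and 0.17.

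Of 3 further genes known to be induced in active nerve cells of flies, 2 showed the same split of samples as Hr38. The transcription factor gene sr was at 4.59, 7.42 and 6.61 FPKM in the HFD samples, against 2.66, 2.07 and 10.8 FPKM in the ND samples. CG14186 was at 61.3, 71.8 and 44.6 FPKM in the HFD samples, against 29.1, 29.8 and 65.4 FPKM in the ND samples. In Hr38, sr and CG14186 alike, ND replicates 1 and 2 were the 2 lowest samples. Both genes were singled out after their values were seen, as they belong to a list of 3 activity-regulated genes, of which 0 had an unadjusted p under 0.05 (median log2 difference 0.48). The remaining gene, kay, was between 58.8 and 66.4 FPKM in the HFD samples and between 61.4 and 66.5 FPKM in the ND samples. Without ND replicate 3 the log2 difference was 1.08 for sr (adjusted p = 0.179 by limma) and 0.96 for CG14186 (adjusted p = 0.202 by limma).

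**Figure D3:**
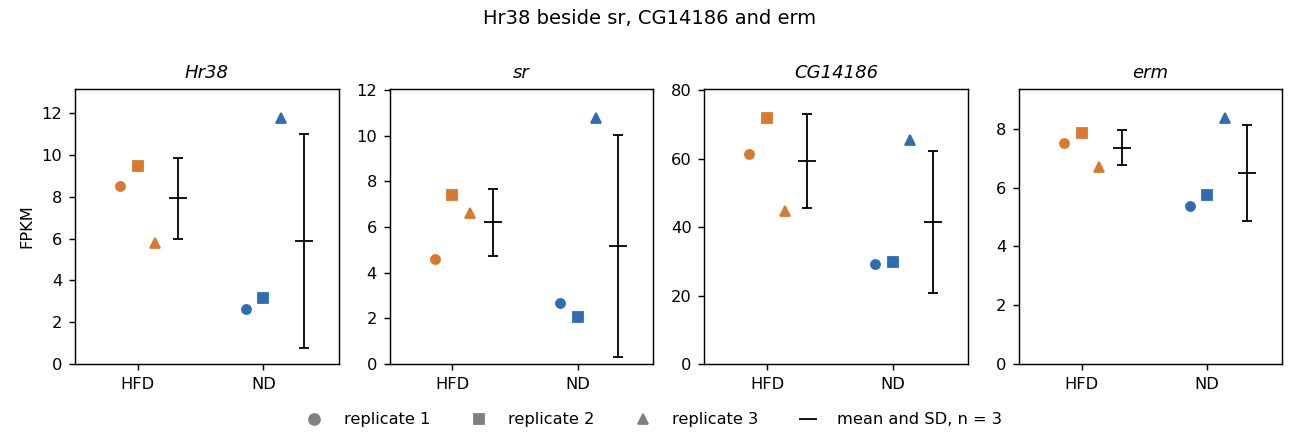
FPKM of Hr38, sr, CG14186 and erm in the 3 HFD samples (left, orange) and 3 ND samples (right, blue), with replicates by symbol, the mean and the SD, each axis starting at 0. ND replicates 1 and 2 are the lowest samples in all 4 panels, and ND replicate 3 lies at or near the top.

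The spread of each receptor was set beside that of genes of a similar level, within 0.5 on the log2 scale of mean FPKM. The coefficient of variation over the 6 samples was 52.8% for Hr38, higher than for 93.4% of 1328 such genes, whose median was 14.3%. By this percentile Hr39 followed, with a coefficient of 21.2%, higher than for 83.0% of genes of its level. At the other end was usp, at 3.58%, which exceeded only 2.23% of 1480 genes of its level. The other 7 receptors stood between percentiles 16.3 and 64.2. The lowest of these percentiles was that of Hr51, although its coefficient of 29.2% was above that of Hr39. Of the 10 genes, 5 were highest in ND replicate 3, namely Hnf4, Hr38, Hr51, usp and svp, and 3 were lowest in HFD replicate 2, namely ERR, Hr96 and Hr51. After median-ratio scaling, 3 were highest in ND replicate 3 (Hnf4, Hr38 and svp), and 1 was lowest in HFD replicate 2 (Hr51). Scaling also left 3 lowest in ND replicate 3 (ERR, Hr96 and usp), against 0 before it.

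**Figure D4:**
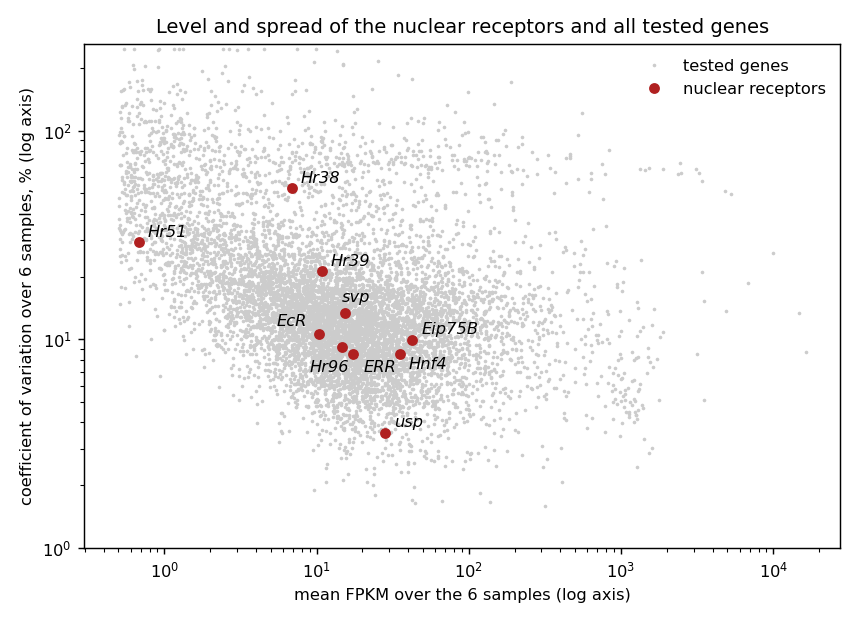
Mean FPKM over the 6 samples (x, log axis) and coefficient of variation over the 6 samples in percent (y, log axis) for all 8362 tested genes (grey) and the 10 receptors (red). Hr38 lies above most genes of its level at 52.8%, and usp lies at the lower edge at 3.58%.

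As a list, the receptors gave counts no higher than those of the whole table. With an adjusted p under 0.05 there were 0 of 10 receptors, against 4 of 8362 genes (0.0239% of all tested genes higher and 0.0239% lower), and with an unadjusted limma p under 0.05 there were also 0 of 10, against 6.71% of all tested genes (260 higher and 301 lower, or 378 higher and 247 lower after median-ratio scaling). In 0 of 10 receptors did the HFD samples lie wholly on one side of the ND samples, against 12.6% of all tested genes (4.54% higher and 8.07% lower). After median-ratio scaling, which divided ND replicate 3 by 1.08, it was again 0 of 10, against 7.1% of all tested genes higher and 5.91% lower. The log2 difference was positive for 4 and negative for 6 receptors, with a median of -0.049, beside a median of -0.027 over all tested genes. The exact permutation p of single receptors was between 0.2 and 1.

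For the 3 most abundant receptors, the genes whose log2 levels followed them most closely over the 6 samples were looked up. They were CG31760 and BNIP3 for Eip75B, with Pearson's r of 0.992 and 0.990, CG32573 and CG30466 for Hnf4, at 0.999 and 0.993, and CG7183 and snama for usp, at 0.996 and 0.994. Hr38 was followed most closely by erm, a zinc finger gene of the developing brain, with an r of 0.999, a gene named after its values were seen. erm was at 7.51, 7.87 and 6.72 FPKM in the HFD samples, against 5.39, 5.76 and 8.37 FPKM in the ND samples. These are the best matches among the 8362 tested genes over 6 shared libraries and are given as a description. An r over 0.95 with Hr38 was found for 68 genes and with Hnf4 for 26 genes.

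Of the other 11 nuclear receptors of the fly, 10 had a value and 5 passed the filter, and 0 of these had an unadjusted p under 0.05, with a median log2 difference of 0.0072. The fly receptor gene ftz-f1, a competence factor for ecdysone, was at 17.0, 13.9 and 18.0 FPKM in the HFD samples, against 18.7, 18.9 and 19.2 FPKM in the ND samples. All its HFD samples were below all its ND samples, and the log2 difference was -0.21 (SE 0.11, adjusted p = 0.834 by limma). After median-ratio scaling of the samples the groups of ftz-f1 overlapped. Eip78C, another ecdysone-induced receptor, was at 4.42, 5.54 and 4.86 FPKM in the HFD samples, against 5.42, 4.66 and 8.73 FPKM in the ND samples. Hr78 split the samples across the diets, at 26.8, 28.1 and 9.97 FPKM in the HFD samples and 23.1, 24.6 and 11.1 FPKM in the ND samples, with replicate 3 of each diet low. kni, a gap gene of the embryo, and its relative knrl had log2 differences of 0.072 and 0.0072. Hr4 and tll were listed at 0 in all samples, and Hr83 and dsf were below the filter. The receptor gene eg, also below the filter and singled out after its values were seen, was at 0.503, 0.344 and 0.502 FPKM in the HFD samples, against 0.238, 0.113 and 0.179 FPKM in the ND samples.

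Among 13 tested ecdysone response genes, 1 was lower and 0 were higher at an unadjusted p under 0.05, against 3.6% and 3.11% of all tested genes, so the count was near that of all genes. The median log2 difference was -0.043. The lower one was Eip55E, a gene induced by ecdysone in cultured cells that encodes cystathionine gamma-lyase. It was at 27.3, 20.8 and 25.7 FPKM in the HFD samples, against 33.8, 33.3 and 29.3 FPKM in the ND samples, a log2 difference of -0.38 (adjusted p = 0.644 by limma). Eip63E, a cyclin-dependent kinase gene, was at 27.8, 27.0 and 27.0 FPKM in the HFD samples and 20.1, 23.0 and 26.6 FPKM in the ND samples. For Blimp-1, a zinc finger repressor that times ecdysone-driven development, the log2 difference was -0.16 (adjusted p = 0.834 by limma). The early genes br and Eip74EF, which encode transcription factors, had log2 differences of -0.12 and 0.0012 with overlapping groups. Without ND replicate 3 the list had 1 lower and 2 higher genes, against 472 lower and 572 higher (6.85%) of all 8354 genes tested in that fit. The higher ones were Eip63E at 0.33 and ImpL2, which encodes a binding protein of insulin-like peptides, at 0.58 (adjusted p = 0.255 and 0.151 by limma). With all 6 samples the groups of ImpL2 overlapped, with ND replicate 3 the highest at 72.7 FPKM. Its log2 difference was then 0.26 (adjusted p = 0.979 by limma). After median-ratio scaling the groups of Eip55E and Blimp-1 overlapped.

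Most genes of ecdysteroid synthesis were below the filter in these heads. Of 10 measured genes of synthesis, uptake and inactivation, 4 passed the filter, 0 with an unadjusted p under 0.05, with a median log2 difference of 0.053. These were Oatp74D, which imports ecdysone, Cyp18a1, which inactivates it, Cyp6t3, and DopEcR, a membrane receptor for dopamine and ecdysone at 87.2, 107.4 and 81.8 FPKM in the HFD samples and 76.4, 75.6 and 109.0 FPKM in the ND samples. The last enzyme of synthesis, encoded by shd, was below the filter at 0.123, 0.138 and 0.274 FPKM in the HFD samples, against 0.612, 0.491 and 0.812 FPKM in the ND samples. The groups did not overlap in shd, nor in spo, as in 12.6% of all tested genes, which lie above the filter. The level of spo was between 0.0756 and 0.170 FPKM in the HFD samples and between 0.212 and 0.300 FPKM in the ND samples. Both genes lie near the floor. Hr51, with a higher mean of 0.680 FPKM, rested on only 4 to 19 fragments per sample.

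Of 8 tested cofactors and chaperones of the ecdysone receptor, 1 was lower and 0 were higher at an unadjusted p under 0.05, against 3.6% and 3.11% of all tested genes. The median of the list was -0.10. The lower gene was Hsp83, the fly Hsp90, which helps to assemble the EcR and usp complex. It was at 279.6, 228.7 and 340.3 FPKM in the HFD samples, against 378.1, 396.1 and 575.2 FPKM in the ND samples, and all HFD samples were below all ND samples. On the log2 scale it differed by -0.66 (SE 0.22, adjusted p = 0.644 by limma). The chaperone Hsc70-4 and the corepressor Smr had non-overlapping groups as well, with log2 differences of -0.20 and -0.11 (adjusted p = 0.842 and 0.942 by limma). In 4 of the 8 genes the HFD samples lay below all ND samples, against 8.07% of all tested genes. The coactivator tai was the remaining one of the 4, and its groups overlapped after median-ratio scaling.

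Of 9 tested genes of fat oxidation and glucose use linked to Hnf4, 4 were higher, and 1 lower, at an unadjusted p under 0.05, against 3.11% and 3.6% of all tested genes, while Hnf4 itself had a log2 difference of -0.076. The median of the list was 0.26. yip2, a thiolase of mitochondrial fat oxidation, was at 132.7, 123.2 and 116.9 FPKM in the HFD samples, against 92.5, 105.1 and 88.5 FPKM in the ND samples. Its log2 difference was 0.38 (SE 0.096, adjusted p = 0.473 by limma). For whd, the carnitine palmitoyltransferase that admits fatty acids to mitochondria, the log2 difference was 0.53 (adjusted p = 0.598 by limma), and for Mtpbeta, a subunit of the trifunctional protein, it was 0.26 (adjusted p = 0.627 by limma). Mcad, a dehydrogenase of the same pathway, was the remaining higher gene at 0.41, and the hexokinase gene Hex-C was the lower one at -0.37 (adjusted p = 0.650 and 0.644 by limma). None of these passed the threshold over all genes. The counts of 4 and 1 were the same without ND replicate 3. In that fit the background was larger, with 572 higher (6.85%) and 472 lower of all 8354 tested genes.

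In the same samples the summed level of the 6 measured fat body markers was between 35125 and 38733 FPKM in the HFD samples and between 25648 and 33407 FPKM in the ND samples, and these ranges did not overlap. Most of these sums came from Yp1, Yp2 and Yp3, with HFD means of 16782, 7913 and 12062 FPKM. The groups overlapped in Yp1, and Lsp2 went the other way, at a mean of 90.7 FPKM in HFD and 353.0 FPKM in ND samples. Of the 5 markers that were tested, 3 were higher (to, Yp2 and Yp3) and 1 was lower (Lsp2) at an unadjusted p under 0.05, against 3.11% and 3.6% of all tested genes, and Fbp1 was below the filter. The part of these markers in the levels of the fat oxidation genes was not tested.

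Of 13 tested genes of glycolysis and the pentose phosphate pathway, which ERR is known to activate in larvae, 1 was lower and 0 were higher at an unadjusted p under 0.05, against 3.6% and 3.11% of all tested genes, a count near that of all genes. The lower one was Ldh, lactate dehydrogenase, at 27.8, 10.5 and 18.2 FPKM in the HFD samples, against 35.8, 38.1 and 36.2 FPKM in the ND samples. Its log2 difference was -1.02 (SE 0.32, adjusted p = 0.614 by limma). The log2 differences of the other 12 genes were smaller in size, and the median of the list was -0.040. Of 6 tested sterol genes linked to Hr96, 1 was lower and 0 were higher at an unadjusted p under 0.05, against 3.6% and 3.11% of all tested genes, and the median log2 difference was 0.064. The lower one was CG8112, whose mammalian relatives esterify sterols, at 28.9, 36.4 and 30.7 FPKM in the HFD samples, against 43.6, 44.1 and 61.6 FPKM in the ND samples, with a log2 difference of -0.61 (adjusted p = 0.517 by limma). The sterol transporter gene Npc1a had a log2 difference of 0.078, and Npc1b, its gut counterpart, was at 1.47, 0.483 and 3.25 FPKM in the HFD samples, against 1.17, 0.715 and 0.128 FPKM in the ND samples, lowest in the library with the lowest gut markers.

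Clock genes were included because Eip75B and Hr51 are known to act on them in pacemaker neurons. Of 8 tested, 0 had an unadjusted p under 0.05, and the median log2 difference was -0.079. The circadian regulator gene per was at 15.5, 16.3 and 6.53 FPKM in the HFD samples, against 13.2, 12.7 and 22.3 FPKM in the ND samples, and tim was at 36.5, 45.6 and 16.5 FPKM, against 30.4, 31.2 and 54.3 FPKM. HFD replicate 3 was the lowest and ND replicate 3 the highest sample in both genes. Eip75B was likewise lower in HFD replicate 3 than in the other HFD samples and highest among the ND samples in ND replicate 3. Only cyc had groups that did not overlap, with the HFD samples lower, as in 8.07% of all tested genes. Its log2 difference was -0.079 (adjusted p = 0.944 by limma), and its groups overlapped after median-ratio scaling.

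**Figure D5:**
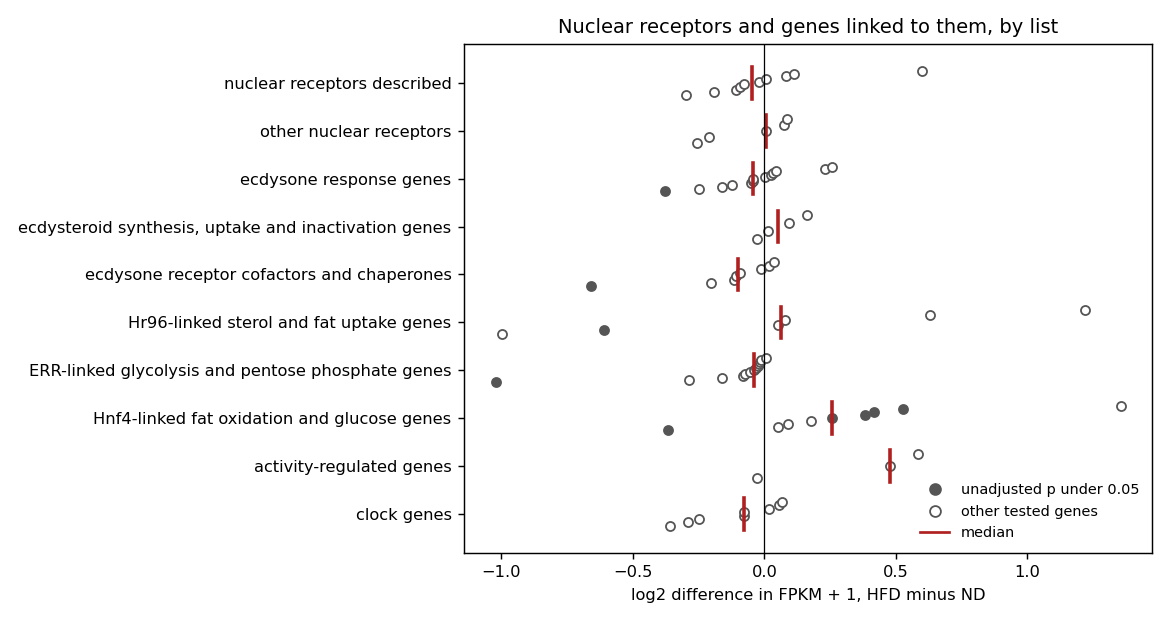
Log2 differences, HFD minus ND, of the tested genes of each list, with filled circles for an unadjusted limma p under 0.05 and a red line at the list's median. The 10 receptors have no filled circle and a median of -0.049, and the fat oxidation and glucose list has 5, of which 4 lie to the right of 0.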

How the data were processed

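RNA of fly heads from 3 HFD and 3 ND samples, assigned from the sample titles, was compared. From reads with a unique place in the fly genome, the authors computed and deposited FPKM (called RPKM in the deposited description), with HISAT named in the submitters' processing notes. Genome build, annotation, counting tool and strandedness are not given in the sources used here. Of 12138 rows, the first row of each of 11922 identifiers was used. Symbols were matched for 11794 identifiers, and gene positions and transcript lengths come from the BDGP6 annotation. Exons of ERR, Hr38 and usp overlap those of other genes with values, and such reads may have been shared or dropped.

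HFD was compared with ND on log2(FPKM + 1) with limma 3.58.1 in R 4.3.3 (lmFit, eBayes with trend, Benjamini-Hochberg over 8362 genes whose mean reached 0.5 FPKM), without a replicate block. The p-values measure the spread between these 6 samples. The paper calls its head RNA samples biological replicates, and separate cultures are not stated. Single values were also compared with the exact permutation test over 20 assignments. Depth was estimated from 4975 genes with 1 transcript. At the depth so chosen, 68.7% to 73.9% of 491 to 586 low values per sample came to a whole number of fragments (tolerance 0.15). An arbitrary depth would give 30.0%. The depth was picked to fit the steps of these same values, so that share is not a chance level for it. No test on counts was made. Of 103 genes in the receptor and pathway lists, 93 had values, and the rest were not analysed here. Named were the 10 receptors, the other receptors past the filter, up to 3 genes per list with non-overlapping groups and the lowest p, and the closest genes of the 3 most abundant receptors. Any other gene named was chosen after its values were seen. The members and lists were chosen with earlier results of these data known. The methods were tested on simulated data. Alternatives were a pseudocount of 0.1, no filter or a mean of 5 FPKM, median-ratio scaling, quantile normalization, no trend, a replicate block, summed rows, and each sample left out.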

Additional observations from a re-analysis of the deposited data

How the results depend on the processing

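For the 10 receptors, 130 of 139 alternative fits kept the sign of the log2 difference, and in all 139 fits the adjusted p stayed at 0.05 or more, the lowest being 0.157 for Hr38 without ND replicate 3. The signs that turned belonged to small differences. The log2 difference of usp was 0.0057 under median-ratio scaling. Leaving out 1 sample at a time gave -0.15 to 0.011 for Hnf4, -0.063 to 0.079 for Hr96, -0.014 to 0.18 for EcR, -0.062 to 0.0092 for usp and -0.16 to 0.030 for svp, against 0.27 to 1.17 for Hr38, -0.18 to -0.040 for ERR, -0.45 to -0.20 for Hr39, -0.27 to -0.068 for Hr51 and 0.034 to 0.20 for Eip75B. At an unadjusted p under 0.05, these fits gave 0 to 1 higher receptors (Hr38, without ND replicate 3). They gave 0 to 1 lower receptors (Hr39, without ND replicate 2). Between 0 and 2 receptors had non-overlapping groups. Without ND replicate 3 it was 2 of 10, against 35.7% of all tested genes, and for the other samples left out that share is not given here. Over all genes, 1 to 5 had an adjusted p under 0.05 and 376 to 1044 an unadjusted one, the most without ND replicate 3. Median-ratio scaling gave 7 genes with an adjusted p under 0.05.

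Replicate numbers are shared between the diets but are not described as paired. Deviations of samples with the same number correlated at 0.308, -0.510 and -0.361, and no HFD sample correlated best with its own number. With the replicate block, 1 gene instead of 4 had an adjusted p under 0.05 and the receptors' adjusted p was 0.999. Hr51 has no value under the filter of a mean of 5 FPKM. Its values rest on 4 to 19 fragments per sample, the fewest of the 10 genes.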
